A study of Homo sapiens with 6 samples.

Results

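The genes described here are 8 members of the machinery that defines a mesenchymal cell. They are the transcription factors SNAI1, SNAI2, TWIST1, TWIST2, ZEB1 and ZEB2 and a pair of products found in mesenchymal cells, vimentin (VIM) and fibronectin (FN1). They were taken by symbol, all 8 were found among the 54308 genes listed, and all 8 had a value in each of the 6 libraries. RNA was sequenced from the human osteosarcoma line 143B, a tumorigenic derivative of HOS cells transformed with Ki-ras, with 3 libraries of cells given the vector plasmid (vector control, VC) and 3 of cells in which CRISPR/Cas9 had been directed at CNTNAP4 (KO). Both groups were transfected, and the labels give 48 h of transfection, whereas the methods give a longer incubation before sorting. The methods describe KO cells grown from 2 single-cell colonies, and the colony behind each library is not given in the sources used here, so differences between colonies and the deletion cannot be told apart.

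SNAI1 and SNAI2 (zinc finger proteins), ZEB1 and ZEB2 (zinc finger and homeobox proteins) and TWIST1 and TWIST2 (basic helix-loop-helix proteins) bind E-box DNA. In epithelia they are best known for silencing E-cadherin and other junction genes during epithelial-mesenchymal transition, when vimentin filaments and fibronectin matrix are gained. Osteosarcoma arises from cells that are already mesenchymal, and here all 8 genes had a value in every VC library as well as in every KO library.

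The values are log2 signals that the authors had quantile-normalized between the 6 libraries, so a difference of 1 is a 2-fold change. Depth is unknown, and the sources used here do not say whether the signal is per gene length, so signals are compared between groups and not between genes. Every library ran from -10.87 to 12.04, and 20333 to 21041 genes had a value in a library. CNTNAP4 itself had a value in 1 library, VC replicate 3, at -7.18, so these signals do not check the deletion. Of 8 osteoblast lineage markers, RUNX2, ALPL, COL1A1 and SPP1 had a value in every library, IBSP had none, and the linear sum of the list was 17.4 to 17.8 in VC and 26.2 to 33.3 in KO. The defining markers of blood vessel and blood cells (PECAM1, CDH5, PTPRC and CD3E) lay below -3 in every library with a value, and CDH1, which encodes E-cadherin, had a value in VC replicate 2 alone, at -8.04. The linear sums were 0.0672 to 0.117 in VC and 0.0894 to 0.163 in KO for the 5 endothelial markers and 3.09 to 3.49 and 1.79 to 2.24 for the 4 epithelial markers, nearly all of it EPCAM. For the 4 leukocyte markers they were 21.7 to 23.0 and 52.3 to 88.1, nearly all of it CD68, a lysosomal gene that other cells also express. The part of other cell types in the results was not tested.

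Of the 8 genes, 3 passed the test between KO and VC (limma, adjusted p under 0.05). FN1 and ZEB1 rose in the KO libraries and TWIST1 fell. A share of 3 in 8 was close to the background, since 32.9% of the 19306 genes tested and 39.2% of the 9653 genes in the upper 50% of mean signal, where all 8 members lay, passed the same test. By direction, 13.1% of all genes tested rose and 19.8% fell. The median difference of the 8 genes was 0.22, against -0.13 over all genes tested. Within each of the SNAI, TWIST and ZEB pairs, the log2 ratio of the partners did not overlap between the groups. The groups also did not overlap in 59.3% of single genes with 6 values, and ratios of other gene pairs were not counted.

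The sequence in front of FN1 and ZEB1, the members that rose, is shown first. It holds letters that CREB/ATF proteins (FN1) or the E-box factors themselves (ZEB1) are known to bind. The part of these letters in the rise was not tested. Of the 8 members, 5 (TWIST2, ZEB1, ZEB2, VIM and FN1) had an entry among the RefSeq promoter windows on GRCh38.p14, and the 250 bases before each start were searched on both strands. The letters were CANNTG (the general E-box), its subset CAGGTG or CACCTG (the E-box that SNAI and ZEB proteins prefer), TGACGTCA (the cAMP response element) and TGANTCA (the AP-1 site). Each sequence runs 5′ to 3′ on the strand of its gene, with E-boxes and the cAMP response element in capitals. The FN1 window is chr2:215436069-215436318 on the minus strand, and the ZEB1 window is chr10:31318167-31318416 on the plus strand, before the first of 7 annotated starts.
FN1: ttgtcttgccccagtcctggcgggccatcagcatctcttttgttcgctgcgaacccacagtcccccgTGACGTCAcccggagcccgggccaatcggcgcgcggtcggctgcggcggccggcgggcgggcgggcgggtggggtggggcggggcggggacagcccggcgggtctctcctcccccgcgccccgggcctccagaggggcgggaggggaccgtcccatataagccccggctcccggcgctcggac
ZEB1: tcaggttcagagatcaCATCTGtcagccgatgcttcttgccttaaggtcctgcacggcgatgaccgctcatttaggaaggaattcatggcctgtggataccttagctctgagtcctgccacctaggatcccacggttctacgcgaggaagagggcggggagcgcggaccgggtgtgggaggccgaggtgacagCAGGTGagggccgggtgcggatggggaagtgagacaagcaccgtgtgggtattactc

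The FN1 window held 1 cAMP response element, which began at position -183 with the base before the start counted as -1, and no E-box. Of 35116 windows of the same length over all genes, 1.65% held TGACGTCA. The ZEB1 window held 2 E-boxes, and 1 of them was CAGGTG, whose class was present in 17.5% of windows. Any E-box was present in 61.8% of windows, and the median window held 1. The windows of TWIST2 and VIM held none of the letters searched, and that of ZEB2 held 1 E-box outside the CAGGTG class. Over the 7 ZEB1 windows the number of E-boxes ranged from 0 to 2. TGANTCA, present in 6.57% of windows, was in no window of these 5 genes. These are matches of letters and say nothing about binding.

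FN1 encodes the fibronectin of the extracellular matrix, which cells assemble into fibrils through integrins. In the order of replicates 1 to 3, its log2 signal was 5.36, 5.39 and 5.33 in VC and 5.83, 5.97 and 5.98 in KO, and the same order is used for every gene. All KO libraries stood above all VC libraries, and the gap of 0.44 between the groups was larger than the range within either. FN1 rose by 0.57 ± 0.07 (SE, n = 3 and 3; 95% interval 0.38 to 0.75), or 1.48-fold, with an adjusted p of 0.0105 in limma. Its call held when 5 of the 6 libraries were left out in turn, and without VC replicate 3 the adjusted p was 0.0504 with a difference of 0.55.

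VIM encodes vimentin, the intermediate filament of mesenchymal cells. It measured 10.47, 10.33 and 10.51 in VC and 10.59, 10.93 and 10.93 in KO. The KO libraries were again all above the VC libraries, but KO replicate 1 stood only 0.07 above the highest VC library. The difference of 0.38 ± 0.13 (SE; 95% interval 0.07 to 0.70) did not pass the test (limma, adjusted p = 0.0667). Without KO replicate 1 the difference was 0.50 with an adjusted p of 0.0128, and without KO replicate 3 it was 0.32 with an adjusted p of 0.17.

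**Figure D1:**
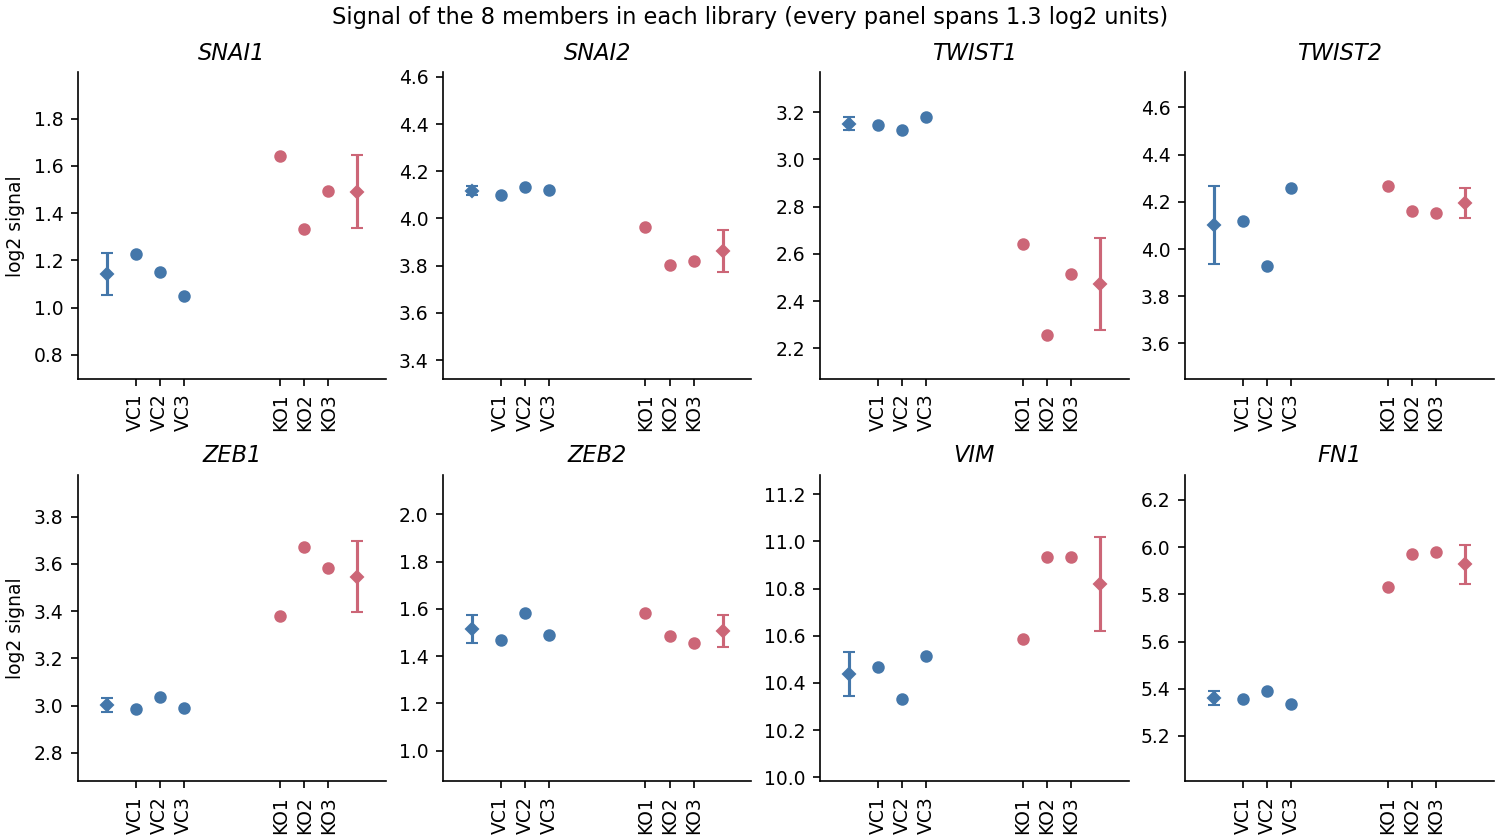
Log2 signal (vertical axis) of each of the 8 members in VC (blue) and KO (red) replicates 1 to 3, with the group mean ± SD as a diamond. FN1 and ZEB1 lay higher and TWIST1 lower in all KO libraries, while TWIST2 and ZEB2 overlapped between the groups.

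ZEB1 represses epithelial genes together with CtBP corepressors and is held down in epithelia by the miR-200 family. Its signal was 2.98, 3.04 and 2.99 in VC and 3.38, 3.67 and 3.58 in KO, with KO replicate 1 nearest to the controls. ZEB1 rose by 0.54 ± 0.10 (SE; 95% interval 0.30 to 0.79), or 1.46-fold, with an adjusted p of 0.0173 in limma. The call was lost with adjusted p-values of 0.0646, 0.0513 and 0.0665 when VC replicate 1, 2 or 3 was left out and of 0.0609 without KO replicate 3, while the difference stayed between 0.48 and 0.62 over all 6 omissions.

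ZEB2, its paralog, measured 1.47, 1.58 and 1.49 in VC and 1.58, 1.49 and 1.45 in KO. The groups overlapped fully, and the difference was -0.01 ± 0.07 (SE; adjusted p = 0.953 in limma). Its 95% interval, -0.20 to 0.18, does not reach the differences seen in ZEB1 or FN1.

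TWIST1 directs cranial and limb mesenchyme and restrains RUNX2 during osteoblast differentiation. It was 3.15, 3.13 and 3.18 in VC and 2.64, 2.26 and 2.52 in KO. The 3 control libraries lay within 0.06 of each other, and every KO library was lower by more than 0.48. TWIST1 fell by 0.68 on the log2 scale (SE 0.12, 95% interval -0.97 to -0.39), to 0.624 of the VC level, with an adjusted p of 0.0156 in limma. It had the largest difference of the 8 genes, and RUNX2 differed by 0.21 with overlapping groups (adjusted p = 0.177). The TWIST1 call was lost without VC replicate 1 (adjusted p = 0.0586), VC replicate 3 (0.0619) or KO replicate 3 (0.0513), with differences between -0.76 and -0.57 over the 6 omissions.

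TWIST2, a relative of TWIST1 expressed in dermal mesenchyme, measured 4.12, 3.93 and 4.26 in VC and 4.27, 4.16 and 4.15 in KO. Here the VC libraries were the more scattered group and spanned the lower KO values. The difference was 0.09 ± 0.11 (SE; 95% interval -0.17 to 0.36; adjusted p = 0.524 in limma).

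SNAI1 (Snail) is a short-lived repressor marked for degradation by GSK3B. Its signal was 1.23, 1.15 and 1.05 in VC and 1.64, 1.33 and 1.49 in KO, so the KO libraries were all higher, with the smallest gap, 0.11, at KO replicate 2. The difference of 0.35 ± 0.11 (SE; 95% interval 0.08 to 0.62) missed the threshold (limma, adjusted p = 0.0574). Without KO replicate 2 it was 0.43 with an adjusted p of 0.0433, the only 1 of the 6 omissions to pass. Without VC replicate 3 the adjusted p was 0.16.

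SNAI2 (Slug), known from neural crest migration, showed the opposite direction. It measured 4.10, 4.14 and 4.12 in VC and 3.96, 3.80 and 3.82 in KO. The control libraries agreed within 0.04 and all KO libraries were lower, by a mean difference of -0.26 ± 0.07 (SE; 95% interval -0.44 to -0.07). The adjusted p of 0.0500334 lay just outside the threshold in limma, and it was 0.017 without KO replicate 1. That was the only 1 of the 6 omissions to pass, and the adjusted p was 0.141 without VC replicate 3. With median-centred libraries the difference was -0.17 with an adjusted p of 0.105.

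In 6 of the 8 genes the groups did not overlap, with the KO values above in 4 (FN1, ZEB1, VIM and SNAI1) and below in 2 (TWIST1 and SNAI2). Among the 17698 genes with 6 values the groups did not overlap in 59.3%, with KO above in 22.6% and below in 36.7%. KO replicate 1 was the KO library nearest to the VC mean in 5 of the 6 genes without overlap, as it was in 71.5% of all genes without overlap. The SD within KO was larger than that within VC in 7 of the 8 members, TWIST2 being the exception, and in 70.2% of genes with 6 values.

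**Figure D2:**
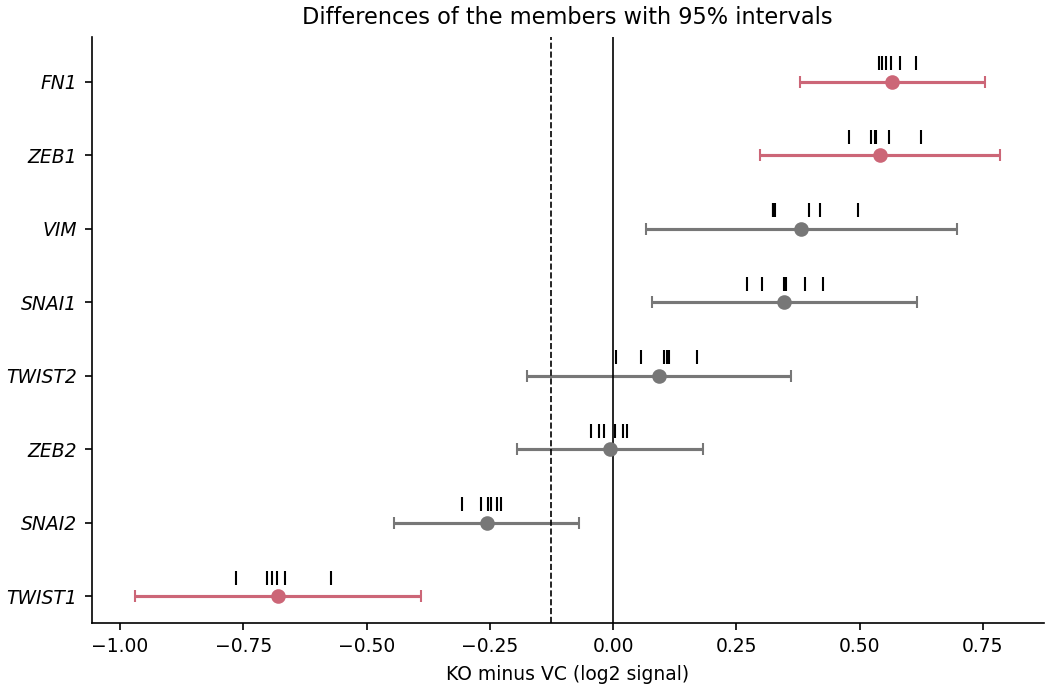
Difference in log2 signal, KO minus VC (horizontal axis), for each member (vertical axis) as a point with its 95% interval, red where the adjusted p was under 0.05, with black ticks for the value with each library left out and a dashed line at the median of all genes tested (-0.13). The intervals of FN1, ZEB1, VIM and SNAI1 lay above 0, those of TWIST1 and SNAI2 below 0, and those of TWIST2 and ZEB2 crossed 0.

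To ask whether partners differed in their response, the log2 ratio of each pair was compared between the groups within libraries, which removes any scaling shared by a library. For TWIST1 against TWIST2 the ratio was -0.97, -0.80 and -1.08 in VC and -1.63, -1.90 and -1.64 in KO, a difference of -0.77. For SNAI1 against SNAI2 it was -2.87, -2.98 and -3.07 in VC and -2.32, -2.47 and -2.33 in KO, a difference of 0.60. For ZEB1 against ZEB2 it was 1.51, 1.45 and 1.499 in VC and 1.80, 2.19 and 2.13 in KO, a difference of 0.55. Each of these 3 ratios separated the groups completely. So did 59.3% of single genes with 6 values, and how often ratios of other gene pairs separate was not counted. Each of the 3 ratios gave a p of 0.1 in a two-sided exact permutation test, or 0.133 adjusted over the 4 pairs. With 3 libraries against 3, 0.1 is the smallest p this test can give, so it cannot pass the threshold.

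The ratio of VIM to FN1 did not separate the groups. It was 5.11, 4.94 and 5.18 in VC and 4.76, 4.97 and 4.95 in KO, a difference of -0.18 (two-sided exact permutation p = 0.3, 0.3 adjusted).

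**Figure D3:**
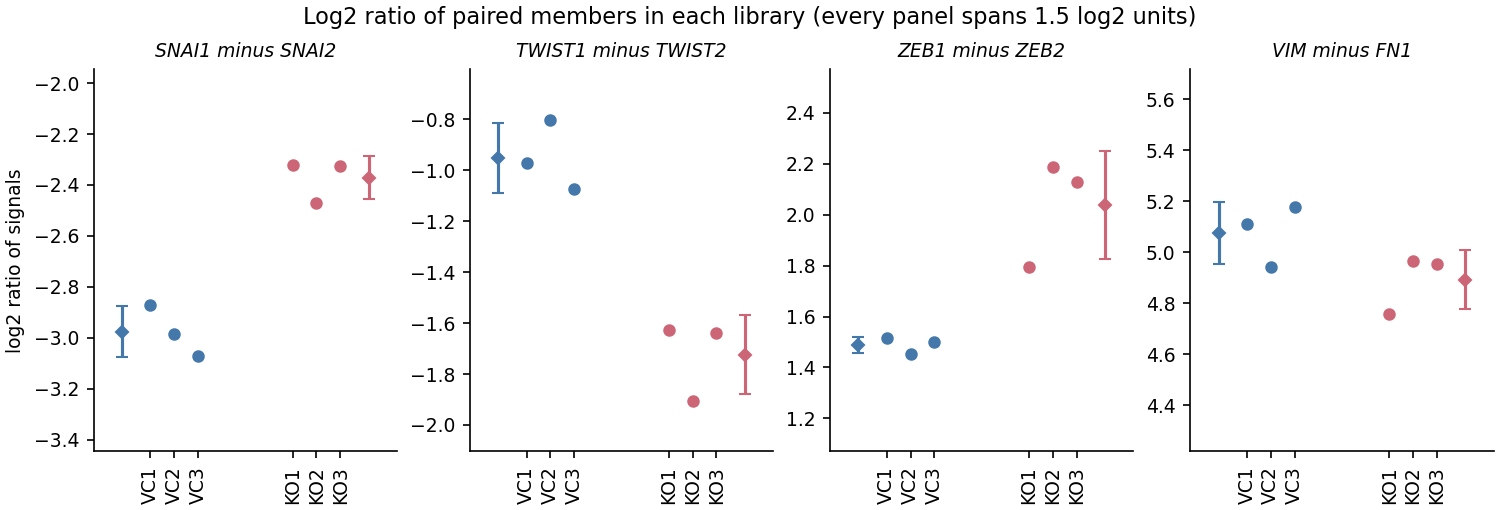
Log2 ratio of the signals of paired members (vertical axis) in VC (blue) and KO (red) replicates 1 to 3, with the group mean ± SD as a diamond. The ratio lay higher in KO for SNAI1 over SNAI2 and ZEB1 over ZEB2, lower for TWIST1 over TWIST2, and overlapped for VIM over FN1.

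Over the 6 libraries, ZEB1 and FN1 were the closest pair of members, with a Euclidean distance of 0.12 between their mean-centred log2 signals. VIM was 0.28 from ZEB1 and 0.33 from FN1, and TWIST1 was farthest from ZEB1 and FN1, at 1.57 from each. Among all genes with 6 values, those most like FN1 were LINC01578, LPIN1 and CASP9 (distances 0.07 each), and those most like ZEB1 were DCTN4, SNHG32 and WDR41 (0.04 to 0.05). For VIM they were B4GALT7, ADGRE5 and CFAP36 (0.06 to 0.09), and for SNAI1 they were CEMIP2, RAB13 and LOC105370841 (0.11 to 0.12). For SNAI2 they were FH, BUB3 and SLC35B4 (0.03 to 0.04), for TWIST2 COQ10A, NKX6-1 and SUSD1 (0.05 to 0.07), and for ZEB2 PPP3R1, GATAD2B and CISD1 (0.03 to 0.04). TWIST1 was followed most closely by FMN1, ZNRF2 and EIF3B (distances 0.05 each), and ZNRF2 and EIF3B lie, as TWIST1 does, on chromosome 7. LPIN1 and FN1 are both on chromosome 2, as are PPP3R1 and ZEB2. How often the nearest genes of other genes share their chromosome was not counted.

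The surroundings of each gene were also measured, a choice made after the values had been seen. Among genes that had a RefSeq position and a mean signal in the upper 50%, the 30 nearest neighbours of TWIST1 had a median difference of -0.24, and 23 of the 30 were lower in KO. The 30 neighbours of SNAI2, on chromosome 8, had a median of -0.27, close to the -0.26 of SNAI2 itself, and 25 were lower. SNAI1, on chromosome 20, went the other way from its surroundings, where the median was -0.43 and 24 of 30 neighbours were lower. For FN1 (chromosome 2), ZEB1 and VIM (both chromosome 10) the neighbours' medians were -0.10, -0.04 and 0.003, near the -0.09 of all 9340 such genes. For TWIST2 and ZEB2, both on chromosome 2, they were 0.02 and -0.13. Over the whole chromosome the median of such genes was -0.15 for chromosome 7, -0.28 for chromosome 8 and -0.25 for chromosome 20. It was -0.08 for chromosome 2 and -0.06 for chromosome 10. The neighbours of SNAI2 thus had nearly the same median as its whole chromosome. The share of all such genes that were lower was not counted. The part of the surroundings in these differences was not tested.

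Reads could in principle be shared with copies of a gene. In GENCODE release 29, no stretch of 50 bases in the transcripts of SNAI1, SNAI2, TWIST1 or TWIST2 occurred in another gene on the same strand, and the share was 0.33% for ZEB2, 0.20% for FN1 and 0.17% for VIM. ZEB1 shared none on the same strand. On the opposite strand, the share in other genes was 20.6% for VIM (foremost VIM-AS1), 4.08% for ZEB2 (ZEB2-AS1), 2.84% for ZEB1 (ZEB1-AS1), 2.47% for TWIST1 (AC003986.2), 0.315% for FN1 and 0 for SNAI1, SNAI2 and TWIST2. The library kit keeps the strand, and the strand setting of the counting is not given in the sources used here, so reads of these gene pairs may not be told apart.

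ZEB1-AS1, the antisense RNA that starts beside ZEB1, rose with it. It measured 1.28, 1.35 and 1.36 in VC and 1.72, 1.997 and 1.78 in KO, a difference of 0.50 ± 0.10 (SE; adjusted p = 0.0202 in limma). The call of ZEB1-AS1 was lost without any of the VC replicates or KO replicate 3, with adjusted p-values up to 0.0741. VIM-AS1 differed by 0.49 ± 0.27 (SE; adjusted p = 0.209), with overlapping groups. Of 7 antisense, divergent and host transcripts listed, 3 could be tested, and ZEB1-AS1 was the 1 that passed. MIR200CHG, the host of miR-200c, is listed without a value in any library, and ZEB2-AS1 had a value in KO replicate 1 alone.

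The wider pathway was read from 10 lists with 137 tested genes, of which 61 (44.5%) passed the test, 25 higher and 36 lower. The counts that follow are read against the 32.9% of all genes tested that passed, 13.1% higher and 19.8% lower, and against the 39.2% that passed in the upper 50% of mean signal. The shares were 31.6% for corepressors, 30% each for epithelial genes and intermediate filaments and 25% for E-proteins and ID proteins, which do not exceed that background. They were 40% for other mesenchymal transcription factors, 50% for the TGF-beta list, 56.2% for kinases and ligases, 59.1% for mesenchymal markers and 64.7% for fibronectin receptors and linkers. Corepressors that SNAI, ZEB and TWIST proteins recruit to DNA showed 6 lower and 0 higher genes of 19 tested, and all 19 differences were negative with the signals as deposited, with a median of -0.24 against -0.13 over all genes tested. With median-centred libraries, which added 0.08 to every difference, 15 of the 19 stayed negative and CTBP1, HDAC2, SIN3A and EHMT2 turned positive. RCOR1, the scaffold of the LSD1 complex, fell by 0.67 (adjusted p = 0.0102), and AJUBA, a LIM protein that bridges SNAI1 to its partners, fell by 0.61 (0.0154). CHD4 of the NuRD complex fell by 0.53 (0.0394) and the DNA methyltransferase DNMT1 by 0.46 (0.0462). The CtBP genes that ZEB1 binds were not among the calls: CTBP1 differed by -0.05 and CTBP2 by -0.10. When each library was left out, the count for the list ranged from 1 to 12, with 1 without VC replicate 1 or 3, 2 without VC replicate 2 or KO replicate 3, and 12 without KO replicate 1.

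Of 16 kinases, ligases, deubiquitinases and oxidases that act on SNAI and ZEB proteins, 6 fell and 3 rose. GSK3B, which marks SNAI1 for destruction, fell by 0.61 (adjusted p = 0.0271), and the ligase subunits BTRC and FBXW7 that read such marks fell by 0.59 (0.0393) and 0.58 (0.0196). Other ligase genes of the list did not all fall, and FBXO11 rose by 0.27 (0.049). FBXL14, FBXO45 and SIAH1 differed by 0.18, -0.23 and 0.28 without passing. LOXL3, a lysyl oxidase family member that binds SNAI1, fell by 0.72 (0.0316). CSNK2A1 and PAK1, kinases that phosphorylate SNAI1, each rose by 0.42 (0.0149 and 0.0125). The count of this list was 0 without VC replicate 1 or 3, 1 without KO replicate 3 and 2 without VC replicate 2.

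Among 10 other mesenchymal transcription factors tested, SOX4 rose by 0.62 (adjusted p = 0.0107), and 3 fell, among them FOXC1 by 0.76 (0.046) and PRRX2 by 0.69 (0.0149). FOXC2 and SOX9 differed by 0.03 and 0.06. Of 8 tested E-proteins and ID proteins, the partners and inhibitors of TWIST proteins, TCF4 rose by 0.63 (adjusted p = 0.0096) and HAND2, a relative of TWIST1 that shares its dimer partners, fell by 1.10 (0.0378). The other E-proteins, TCF3 and TCF12, differed by -0.42 (0.0818) and 0.07 (0.443). Without VC replicate 1, 2 or 3 the first list held 1, 3 and 0 calls and the second 1 each time. Without KO replicate 3 they held 2 and 1, and without KO replicate 2 the second held 1.

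Epithelial genes, the usual targets of SNAI and ZEB repression, showed 5 lower and 1 higher of 20 tested. Their median was -0.17 against -0.13 over all genes tested, with 9 differences positive and 11 negative. CLDN4, a tight junction claudin, fell by 1.89 (adjusted p = 0.0148), but from a low signal of -2.95 to -2.35 in VC to -5.14 to -4.11 in KO. OVOL2, a repressor of ZEB1, fell by 1.59 (0.0264) and MUC1 by 1.21 (0.0379), also from signals below -2. EPCAM fell by 0.67 (0.0157), from 1.62 to 1.79 in VC to 0.84 to 1.16 in KO. DSP, which anchors desmosomes, fell by 0.66 (0.0079) and the keratin KRT8 rose by 0.59 (0.0135). The junction genes OCLN and JUP differed by 0.01 and 0.02, with overlapping groups. The count for this list was 1 without VC replicate 3, 2 without VC replicate 1 and 3 without KO replicate 3.

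Mesenchymal marker genes other than VIM and FN1 moved in both directions, with 9 higher and 4 lower of 22 tested and a median of 0.12. The receptors PDGFRA and PDGFRB rose by 1.18 (adjusted p = 0.0052 and 0.0096), PDGFRB from low signals, -3.07 to -2.73 in VC and -1.93 to -1.56 in KO. POSTN, a matrix protein, rose by 2.88 (0.0159) from very low signals, -6.27 to -4.92 in VC and -3.56 to -2.31 in KO. TAGLN, an actin-binding protein of contractile cells, fell by 2.20 (0.0048), from 1.57, 1.39 and 1.57 to -0.53, -0.91 and -0.62. N-cadherin (CDH2), whose gain usually accompanies loss of E-cadherin, rose by 0.26 (0.0497), with a p just inside the threshold. The matrix genes TNC, MMP2 and SPARC rose by 0.83 (0.0086), 0.72 (0.0069) and 0.37 (0.0213), while ACTA2, the smooth muscle actin gene, fell by 0.79 (0.0259). The collagen gene COL1A2 also fell, by 0.81 (0.0161), from low signals, -5.03 to -4.59 in VC and -5.72 to -5.47 in KO. NT5E fell by 0.66 (0.0087), while COL1A1 and TGFBI rose by 0.33 (0.0309) and 0.49 (0.0413). Without VC replicates 1, 2 and 3 or KO replicate 3 the count was 7, 6, 7 and 7.

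Vimentin belongs to a large family of filament proteins. Of 10 other intermediate filament genes and their linker tested, 3 fell and 0 rose, with a median of -0.82. That median includes GFAP, NEFL and NEFM, which differed by -1.01, -1.92 and -1.86 without passing. Their signals lay below -3 in every library with a value. Keratin genes were counted in the epithelial list instead, where KRT8 rose by 0.59 and KRT18 differed by -0.26 without passing. SYNM, which encodes the filament protein synemin that assembles with vimentin, fell by 1.58 (adjusted p = 0.0227), from 3.31, 3.24 and 3.21 in VC to 2.16, 0.95 and 1.91 in KO. The lamins LMNB1 and LMNB2 of the nuclear envelope fell by 0.94 (0.0346) and 0.70 (0.0213), whereas LMNA differed by -0.12 (0.276). PLEC, the plectin linker, differed by 0.10 with overlapping groups. None of the 3 calls of this list was made when any VC replicate was left out, and 1 was made without KO replicate 3.

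For fibronectin, receptors and linkers were measured with it, and of 17 tested 6 rose and 5 fell. The classical fibronectin receptor is the integrin of ITGA5 and ITGB1. ITGA5 rose by 0.70 (adjusted p = 0.0138), from 4.62, 4.48 and 4.61 to 5.15, 5.46 and 5.20, and ITGB1 rose by 0.23 (0.0452). ITGB3 rose by 1.38 (0.0124) and its partner ITGAV by 0.49 (0.0161). LTBP1, which stores latent TGF-beta on fibronectin, rose by 1.09 (0.0066), and SDC4, a co-receptor for fibronectin, rose by 0.69 (0.019). ITGA4, which binds an alternative site of fibronectin, fell by 0.56 (0.0254), and TNS1, a tensin of fibrillar adhesions, fell by 0.80 (0.0132). The list held 1 call without VC replicate 1 or 3, 5 without KO replicate 3, and 6 without VC replicate 2 or KO replicate 2.

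TGF-beta is the best-known inducer of these transcription factors. Of 12 ligands, receptors and SMADs, 3 rose and 3 fell. TGFB2 fell by 3.41 (adjusted p = 0.0087), from -0.36 in each VC library to -3.06, -4.52 and -3.73 in KO, and TGFB1 rose by 0.41 (0.0275). The receptors went apart, TGFBR2 rising by 0.57 (0.0137) and TGFBR1 falling by 0.57 (0.0096). SMAD3 rose by 0.29 (0.0389), SMAD2 and SMAD4 differed by 0.01 and -0.07, and SKI, a SMAD corepressor, fell by 0.82 (0.0371). Without VC replicates 1, 2 and 3 the count was 2, 3 and 2, and without KO replicate 3 it was 3.

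**Figure D4:**
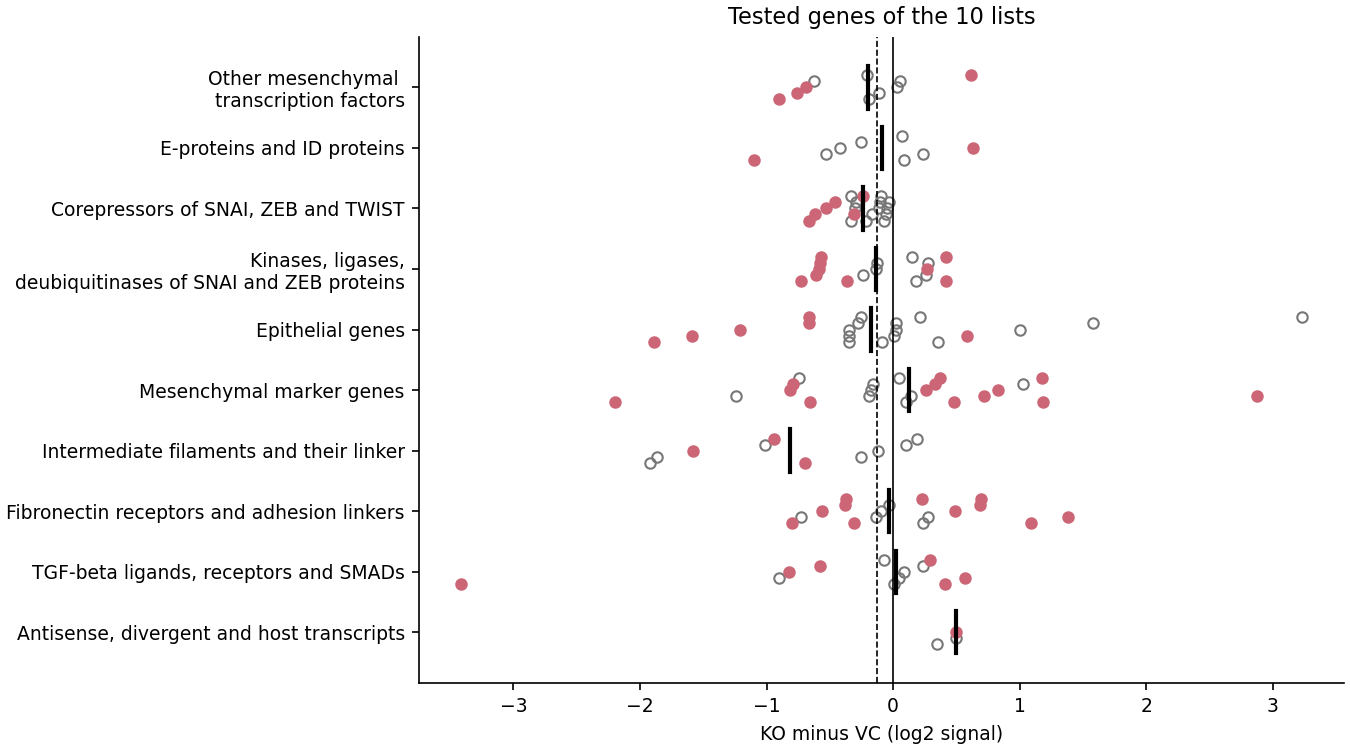
Difference in log2 signal, KO minus VC (horizontal axis), of every tested gene of 10 lists (vertical axis), red where the adjusted p was under 0.05, with the list median as a black bar and the median of all genes tested as a dashed line. With the signals as deposited all 19 corepressor genes lay below 0 (15 with median-centred libraries), while mesenchymal markers and fibronectin receptors held calls on both sides.

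**Figure D5:**
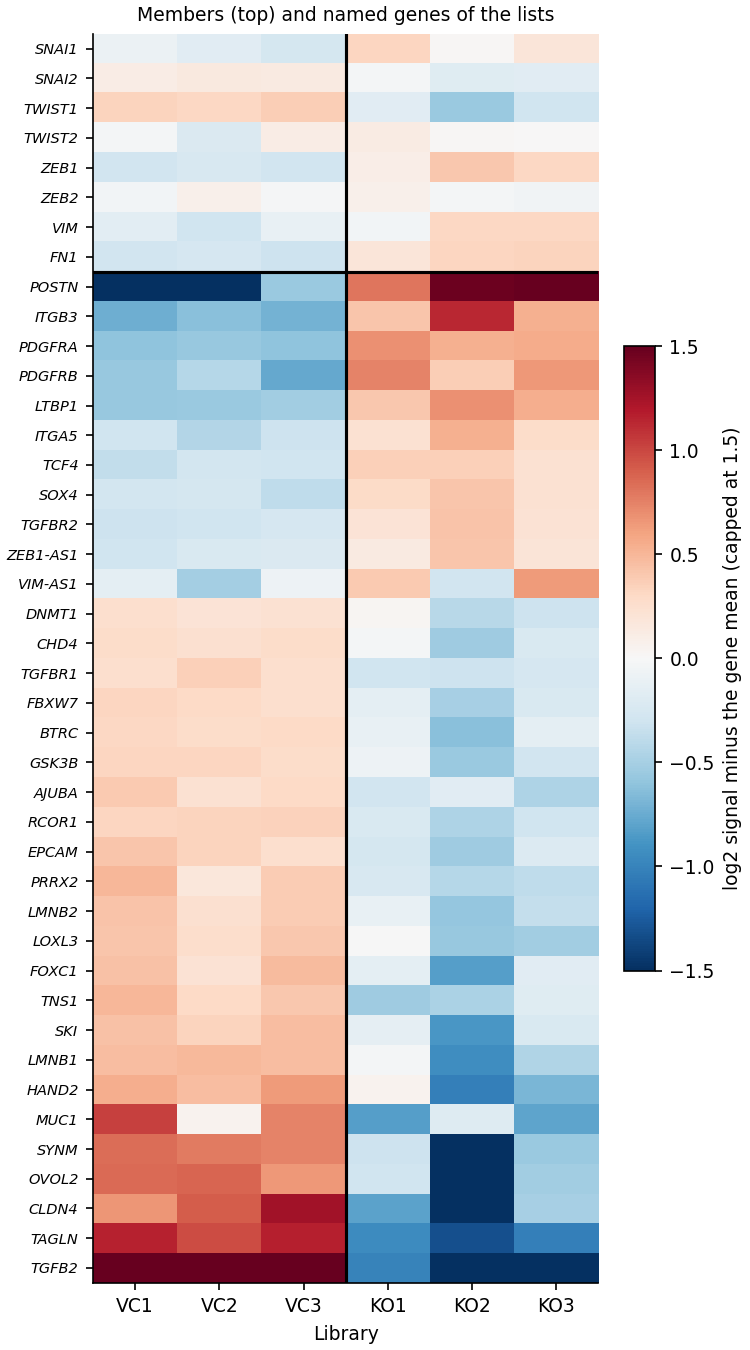
Log2 signal minus the mean of the gene, on a colour scale capped at 1.5, for the 8 members (top rows) and genes of the lists named in the text (below) in the 6 libraries (columns). Members changed less than POSTN, TAGLN or TGFB2, and KO replicate 1 was often paler than KO replicates 2 and 3.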

How the data were processed

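RNA of 3 VC and 3 KO libraries of 143B cells was sequenced, and libraries were assigned to group and replicate from their labels. Nothing in the labels ties a library to a colony, so p-values measure the spread between these libraries. The authors deposited log2 signals per gene symbol, quantile-normalized between the libraries. The labels list CASAVA, STAR, Partek and GRCh38.p13, and the paper names CLC Genomics and Partek Genomics Suite. An empty cell was treated as no value. Depth and the linear unit are not given in the sources used here.

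The 19306 genes with at least 2 values per group were compared with limma 3.58.1 in R 4.3.3 (linear model, empirical Bayes moderation without trend, two-sided, Benjamini-Hochberg over all genes tested). A gene is called when its adjusted p is under 0.05, after a check on simulated data. Log2 ratios of 4 pairs were compared by exact permutation. Members and lists were chosen with earlier results of these data known. The text names all members, CNTNAP4, up to 4 called genes per list with the largest difference (2 tested genes with the highest signal where fewer than 2 were called) and the 3 genes nearest to each member. Other list genes and markers (among them CTBP1, OCLN, TNC and SMAD3) were named after their values were seen. Promoter windows, positions and transcripts came from RefSeq (GRCh38.p14) and GENCODE release 29, with 17667 of 19306 tested genes matched by symbol. Alternatives covered libraries left out, scaling, filters, 1 added to the linear signal, moderation and a replicate block. Not every gene of the lists is reported by name here.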

Additional observations from a re-analysis of the deposited data

How the results depend on the processing

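The number of members called was 3 and ranged from 0 to 5 when each library was left out. It was 0 without VC replicate 3, where 4 members had an unadjusted p under 0.05 in limma and the smallest adjusted p was 0.0504. It was 6 with 1 added to the linear signal, in the upper 50% of mean signal and with trend and robust moderation, and 5 for genes with 6 values. Over all genes, 6354 were called, and 1223 (without VC replicate 3) to 8669 (without KO replicate 1) when libraries were left out. The listed genes called numbered 61, and 13 to 75 with libraries left out.

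Same-numbered libraries did not deviate together (correlations of 0.02, 0.01 and -0.01), so the replicate numbers were not taken as pairs. With a replicate block, 1533 genes, 18 listed genes and 0 members were called, and 4 members had an unadjusted p under 0.05.

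ZEB2 and its nearest genes, all within 0.1 of 0, changed sign. ZEB2 ranged from -0.0443 to 0.0284 with libraries left out (above 0 without VC replicate 2 or KO replicates 2 or 3) and was 0.0774 with median-centred libraries. PPP3R1 (-0.0651 to 0.0255, 0.0662) and CISD1 (-0.0552 to 0.0400, 0.076) did so under the same settings, and GATAD2B (-0.0302 to 0.0406) fell below 0 without VC replicates 1 or 3 or KO replicate 1. The cause was not tested. Over 924 values of 67 named genes under the alternatives, 676 kept direction and side of the threshold, 198 lost the call, 35 gained it and 15 changed sign. The 4 pair ratios kept their direction in all alternatives run. The unknown depth leaves the counting error of each signal unknown.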
